A study of Mus musculus with 6 samples.

Results

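The genes described here encode ion channels that shape the electrical activity of the heart, with their accessory subunits. They are 30 genes, chosen by symbol from a list of cardiac sodium, potassium and pacemaker channels and matched to GRCm38 gene identifiers, out of 52550 mouse genes in the count files. Each of the 30 symbols matched exactly 1 gene row. The list is wider than its name, because 5 members encode calcium channel subunits and 2 encode Trpm cation channels.

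Each heartbeat starts with an inward current in pacemaker cells of the sinoatrial node, carried in part by Hcn channels, with T-type and L-type calcium channels. Working heart muscle cells depolarise through sodium and calcium channels and then repolarise through several potassium currents, each built from a pore subunit and accessory subunits. Around birth the mouse heart shifts from few and slow to many and fast repolarising currents, and hormones such as glucocorticoids and thyroid hormone are known to act on this maturation.

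The study profiled whole mouse hearts at postnatal day 7 in 2 groups of 3 libraries, labelled as biological replicates. GR-cKO hearts carried a cardiomyocyte-specific deletion of the glucocorticoid receptor (Nr3c1), and control hearts were labelled ctrl. The labels name no Cre line or promoter, deleted exon, strain or sex, and no genotype of the control animals, so it is not known here whether the controls carried a floxed allele or a Cre transgene. RNA was sequenced from the 3′ end of polyadenylated transcripts (QuantSeq FWD), so that read counts do not scale with transcript length, and levels of different genes are set side by side as CPM, reads scaled to a common library size.

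Total reads were 18135540 to 20988286 in GR-cKO libraries and 19209410 to 22999192 in control libraries. The most similar libraries were control replicate 3 and GR-cKO replicate 1, of different groups. Between them the chi-square over genes was 10.1 times its degrees of freedom, well beyond sampling noise. The closest pair within a group, control replicates 1 and 3, was at 11.2. GR-cKO replicate 3 stood apart, at 35.6 to 56.0 against each of the other 5 libraries, where no pair of those exceeded 27.3. Nr3c1, the targeted gene, was at 57.6, 49.2 and 56.2 CPM in GR-cKO replicates 1, 2 and 3, against 114, 131 and 99.7 CPM in control replicates 1, 2 and 3. It was the only one of 14860 tested genes that passed the edgeR quasi-likelihood test at an adjusted p of 0.05 (log2 fold change -1.08, SE 0.13, adjusted p = 0.00101). The 3′ reads need not fall in the deleted part, and non-muscle cells of the heart keep the gene. The cardiomyocyte gene Myh6 was at 9356 to 14061 CPM in GR-cKO and 10535 to 11245 CPM in control hearts, a level that fits the heart tissue of the labels. In whole tissue, fewer cells of a type and less RNA per cell cannot be told apart, which applies to every level given here.

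None of the channel genes passed the test over all genes. Of the 30, 29 had enough reads to be tested, and their edgeR adjusted p-values were all 0.998 or above, where the share of all tested genes called in either direction was 0.00673%. At an unadjusted p under 0.05, 1 channel gene was higher, Cacna1g, where 2.07% of all tested genes were, and 2 were lower, Kcnd3 and Scn7a, where 2.13% were. Over all genes that split was 308 higher and 316 lower, but 170 and 361 by library totals and 134 and 87 with spike-in scaling, and under either of these Cacna1g was no longer among them. DESeq2 and limma voom also called 0 channel genes, and each had the same 3 at an unadjusted p under 0.05. The 3 genes were 10.3% of the 29, against 4.2% of all tested genes in either direction. As the list was chosen with earlier results of these data known, this is a description only. Kcnd3 had enough reads in the control group alone, so it entered the test through the group where it was higher, and without it the share was 2 of 28, or 7.14%.

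The 3 GR-cKO libraries lay entirely above the 3 control libraries for 1 channel gene, Cacna1g, against 4.7% of all tested genes. They lay entirely below for 5, namely Kcnip2, Trpm7, Scn7a, Kcna4 and Kcnd3, against 5.27% of all tested genes. These counts hold for the scaling used here (TMM) and were not made with other scalings. Trpm7 separated narrowly, at 57.6 CPM in the highest GR-cKO library against 58.0 CPM in the lowest control library. In either direction the groups were separate for 20.7% of the 29, against 9.97% of all tested genes, and for 5 of 28, or 17.9%, without Kcnd3. These shares too are a description of a list chosen with earlier results known. The median log2 fold change of the 29 was -0.041, and that of all tested genes was 0.0057. Fold changes were positive for 12 channel genes and negative for 17. Their median SE was 0.16 on the log2 scale, and for 25 of the 29 the 95% interval of the fold change excluded a 2-fold difference in either direction, as it did for 72.2% of all tested genes. For 18 of the 29, or 62.1%, it excluded a 1.5-fold difference, against 47.8% of all tested genes.

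**Figure D1:**
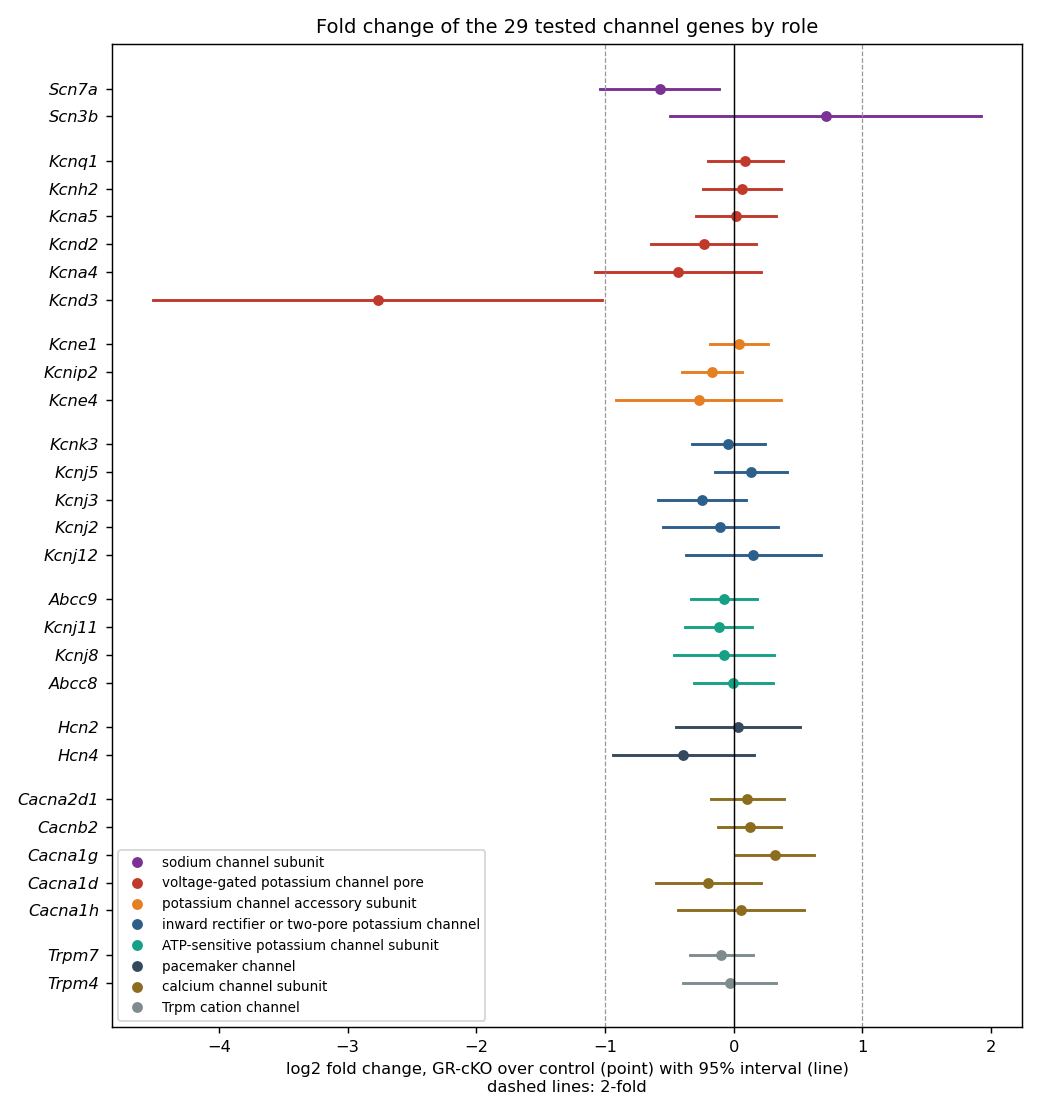
Log2 fold change of each of the 29 tested channel genes, GR-cKO over control (points), with its 95% interval from the edgeR fit (lines), by role; dashed lines mark 2-fold. Of the intervals, only those of Kcnd3, Scn7a and Cacna1g exclude 0, and Kcnd3 entered the fit through the control group alone.

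Mean levels ran from 0.243 to 337 CPM in control hearts, and the order hardly differed between the groups. Summed over the 30 genes, the level was 1485 ± 102 CPM in GR-cKO and 1499 ± 50.4 CPM in control hearts (SD, n = 3 each). Kcne1, the accessory subunit that slows the current through Kcnq1 pores, led in both groups and alone made up 23.4 ± 1.39% of that sum in GR-cKO and 22.5 ± 0.688% in control hearts. Abcc9 came next, about 1.63-fold below Kcne1 and 2.05-fold above the gene after it in control hearts. The next 4 genes, Kcnk3, Kcnj11, Cacna2d1 and Kcnip2, had control means of 92.6 to 101 CPM, and neighbours among them overlapped over the 3 control libraries. Of the 29 adjacent pairs in the control order, 12 did not overlap over the control libraries and 17 did. No gene moved by more than 3 places between the orders of the groups, and the gene that moved by 3 was Cacna1g, from place 12 in GR-cKO against place 15 in control hearts. At the low end were Kcnd3, Scn3b and Scn4b, each under 2 CPM in both groups.

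**Figure D2:**
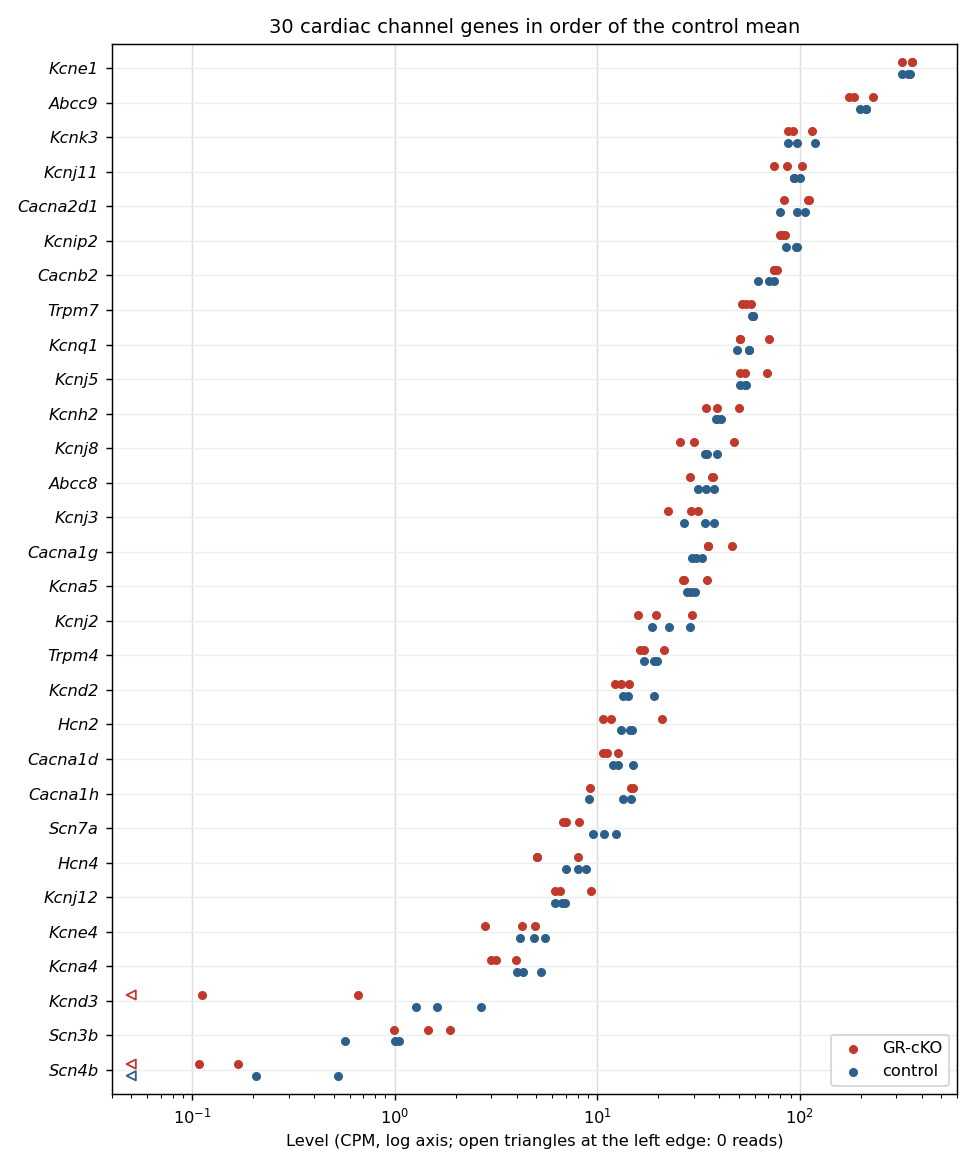
Level of each of the 30 channel genes in each library in CPM on a log axis, ordered by the control mean, with GR-cKO libraries drawn above control libraries; open triangles mark libraries with 0 reads. The groups overlap for most genes, and Kcne1 leads with 321 to 359.9 CPM in GR-cKO and 319 to 351 CPM in control hearts.

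The voltage-gated potassium channel pores held the widest difference on the list. Kcnd3 encodes a pore of the fast transient outward current that ends the upstroke of the action potential, and it lies on the plus strand of chromosome 3 from 105452330 to 105674002. It had 2, 14 and 0 reads in GR-cKO replicates 1, 2 and 3, against 29, 52 and 31 reads in control replicates 1, 2 and 3. All 3 GR-cKO hearts lay below all 3 control hearts, and the summed reads were 16 in GR-cKO and 112 in control hearts. The level was 0.257 ± 0.353 CPM in GR-cKO and 1.86 ± 0.729 CPM in control hearts (SD, n = 3 each). The 0 of GR-cKO replicate 3 allows a level of up to 0.161 CPM, from 3 reads and for counting error only. Kcnd3 had enough reads in the control group alone and entered the fits through the group where it was higher. Its interval and p-values are therefore a description of these reads and no support for a difference. The fitted log2 fold change was -2.77 (SE 0.83, 95% interval -4.51 to -1.02, edgeR unadjusted p = 0.00371, adjusted p = 0.998). With GR-cKO replicate 2 left out it was -4.92, with GR-cKO replicate 3 left out -2.21, and its size depends on how a fit treats counts near 0. In the other fits its adjusted p was lowest without a filter on low counts, at 0.141, and it was 0.526 by DESeq2. Kcnd3os, an antisense gene whose exons overlap those of Kcnd3, had 0 CPM in every GR-cKO library and 0 to 0.257 CPM in control libraries.

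Kcnd2, the other pore of that current and the more abundant one, was at 12.2, 13.1 and 14.4 CPM in GR-cKO replicates 1, 2 and 3, against 19.1, 13.5 and 14.1 CPM in control replicates 1, 2 and 3. Its groups overlapped, with control replicate 1 above the other 5 libraries (log2 fold change -0.24, 95% interval -0.64 to 0.17). Without control replicate 1 the fold change was -0.060. The ratio of Kcnd2 to Kcnd3 reads, which needs no scaling between libraries, had a mean log2 of 6.59 ± 2.40 in GR-cKO and 3.10 ± 0.784 in control hearts (SD, n = 3 each). This difference of 3.49 restates the low Kcnd3 reads and is given with no test, since Kcnd3 had enough reads in the control group alone. It rests in part on the 0.5 read added to each gene: it was 2.61 with 2 reads added, and 2.26 without GR-cKO replicate 3, which had 0 Kcnd3 reads, to 4.66 without GR-cKO replicate 2.

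Kcna5, the pore of the ultrarapid delayed rectifier current, is a gene whose transcript is known to be raised by glucocorticoids in rat ventricle. It was at 26.4, 26.9 and 34.9 CPM in GR-cKO replicates 1, 2 and 3, against 30.3, 29.2 and 27.6 CPM in control replicates 1, 2 and 3. The control hearts lay within the range of the GR-cKO hearts, and the log2 fold change was 0.017 (95% interval -0.30 to 0.33). Kcna4, the pore of the slow transient outward current, had 71, 63 and 59 reads in GR-cKO and 92, 84 and 101 reads in control hearts. Its level was 3.37 ± 0.525 CPM in GR-cKO and 4.54 ± 0.668 CPM in control hearts (SD, n = 3 each), the GR-cKO hearts all lower, and the log2 fold change was -0.43 (95% interval -1.08 to 0.21). Between Kcna4 and Kcna5 the log2 ratio was -3.11 ± 0.364 in GR-cKO and -2.68 ± 0.271 in control hearts (exact permutation p = 0.3). The smallest p that 3 against 3 libraries allow is 0.1. Adjusted over the 10 ratios computed, every p was 0.6 or above. That adjustment counted the ratio of Kcnd2 to Kcnd3, whose own p is not used here.

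Promoter sequences from RefSeq (GRCm38.p6, 250 bases before to 50 after a RefSeq start) were listed for 21 of the 30 genes, some with more than 1 start, 23 windows in all. The other 9 were Abcc8, Cacna1g, Cacna1h, Kcne1, Kcnj11, Kcnk3, Kcnq1, Scn3b and Trpm4. They were searched on both strands for a loose form of the palindrome that the glucocorticoid receptor binds as a dimer, ACA and TGT 3 bases apart with a G and a C 1 base further out, and for the half-site TGTTCT. The palindrome was in 1 of the 23 windows, that of Kcna5, and in 0.475% of 32851 windows of the same length over all genes. In the Kcna5 window it starts at position -59 relative to the RefSeq start. RefSeq starts can differ from the gene positions used elsewhere here, and the Kcnd3 window ends before the start given above for that gene. The Kcna5 window, which holds the palindrome, also ends before the start of its gene in those positions, 126535412 on chromosome 6. The half-site was in 4 of the 23 windows, 17.4%, those of Scn4b and Kcnj5 and 1 window each of Cacnb2 and Cacna1d, against 19% of all windows. The Kcna5 window (chr6:126535506-126535805, minus strand) is shown because it holds the palindrome, in capitals, and the windows of Kcnd3 (chr3:105451640-105451939, plus strand) and Scn7a (chr2:66784861-66785160, minus strand) because these are the genes with an unadjusted p under 0.05 that had a window. They hold neither motif and are all in lower case. A match of letters is a description and no evidence of binding, and its absence says only that these letters are not in this window.
Kcna5: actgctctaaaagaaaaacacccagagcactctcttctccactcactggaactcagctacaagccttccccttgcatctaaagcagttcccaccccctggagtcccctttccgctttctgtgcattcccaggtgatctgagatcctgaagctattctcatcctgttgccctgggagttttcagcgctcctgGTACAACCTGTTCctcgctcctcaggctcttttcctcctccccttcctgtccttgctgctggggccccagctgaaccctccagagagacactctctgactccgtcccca
Kcnd3: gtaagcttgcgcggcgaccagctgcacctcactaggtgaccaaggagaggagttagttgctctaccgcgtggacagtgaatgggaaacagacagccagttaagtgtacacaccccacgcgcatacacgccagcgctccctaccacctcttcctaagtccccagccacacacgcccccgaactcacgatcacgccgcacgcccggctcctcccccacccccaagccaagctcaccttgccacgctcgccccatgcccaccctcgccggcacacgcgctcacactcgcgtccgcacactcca
Scn7a: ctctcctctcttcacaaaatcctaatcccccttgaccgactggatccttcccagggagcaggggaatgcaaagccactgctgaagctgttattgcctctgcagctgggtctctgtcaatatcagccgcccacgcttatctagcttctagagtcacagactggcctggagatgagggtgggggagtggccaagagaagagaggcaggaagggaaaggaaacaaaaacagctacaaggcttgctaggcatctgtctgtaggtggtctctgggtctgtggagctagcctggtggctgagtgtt

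The delayed rectifier pores lay close together in the groups. Kcnq1, the pore of the slow delayed rectifier, was at 50.9, 50.9 and 70.2 CPM in GR-cKO replicates 1, 2 and 3, against 56.2, 49.01 and 56.3 CPM in control replicates 1, 2 and 3. Its antisense partner Kcnq1ot1, a long non-coding RNA with overlapping exons, was at 15.8 to 42.8 CPM in GR-cKO and 28.4 to 34.2 CPM in control hearts. Reads from the shared exons could enter the count of Kcnq1 where counting ignored strand. No exon of another counted gene overlaps the last 1000 bases of Kcnq1, nearest the 3′ end that was sequenced. Kcnh2, the pore of the rapid delayed rectifier, was at 41.1 ± 7.85 CPM in GR-cKO and 39.4 ± 1.28 CPM in control hearts (SD, n = 3 each). For both genes GR-cKO replicate 3 was the highest of the 6 hearts, and without it the log2 fold changes were -0.082 for Kcnq1 and -0.0996 for Kcnh2, against 0.090 and 0.061 with all hearts.

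Accessory subunits of potassium channels included the most abundant gene of the list. Kcne1 was at 321, 359.9 and 358 CPM in GR-cKO replicates 1, 2 and 3, against 351, 319 and 340.5 CPM in control replicates 1, 2 and 3. It had the smallest SE of the list, 0.11, and a log2 fold change of 0.040 (95% interval -0.19 to 0.27). The log2 ratio of Kcne1 to its partner Kcnq1 was 2.61 ± 0.240 in GR-cKO and 2.65 ± 0.0544 in control hearts (exact permutation p = 0.9). Kcnip2 encodes a calcium-binding subunit that brings Kcnd pores to the membrane. It was at 84.4, 79.9 and 82.7 CPM in GR-cKO replicates 1, 2 and 3, against 85.6, 95.6 and 96.8 CPM in control replicates 1, 2 and 3. The GR-cKO hearts were all lower, and the log2 fold change was -0.17 (95% interval -0.40 to 0.061, unadjusted p = 0.14). Kcne4, which dampens several voltage-gated pores, was at 3.997 ± 1.10 CPM in GR-cKO and 4.85 ± 0.677 CPM in control hearts (SD, n = 3 each).

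**Figure D3:**
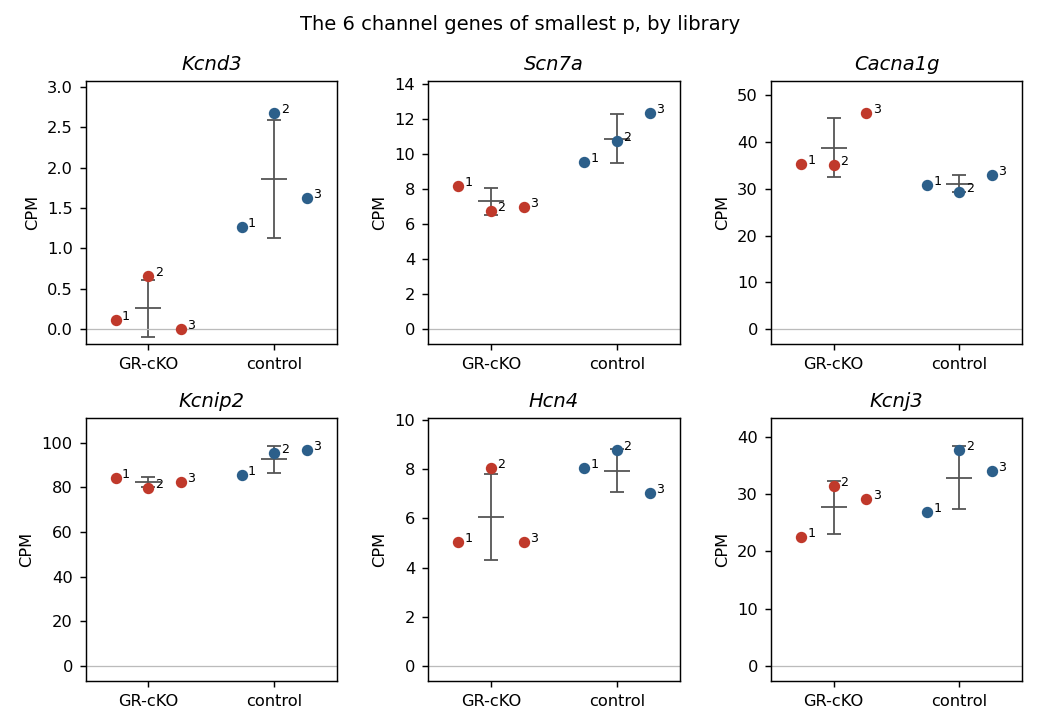
Level in CPM of the 6 channel genes of smallest p in each library (points, numbered by replicate), with the mean and SD of each group of 3. The groups are separate for Kcnd3, Scn7a, Cacna1g and Kcnip2 and overlap for Hcn4 and Kcnj3.

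Inward rectifiers and the background channel hold the resting potential. Kcnk3, a two-pore background channel that acid closes, was the third gene of the list, at 115, 92.1 and 87.03 CPM in GR-cKO replicates 1, 2 and 3, against 87.5, 96.7 and 118 CPM in control replicates 1, 2 and 3. The groups covered almost the same range (log2 fold change -0.041, 95% interval -0.33 to 0.24). Kcnj2, the main pore of the inward rectifier current of ventricular muscle, was at 19.5, 29.4 and 15.97 CPM in GR-cKO and 28.7, 18.6 and 22.5 CPM in control hearts. Its spread within each group was larger than the difference between the groups. Kcnj12, another pore of that current, was at 6.53, 9.29 and 6.19 CPM in GR-cKO and 6.95, 6.16 and 6.71 CPM in control hearts, and the groups overlapped. The log2 ratio of Kcnj2 to Kcnj12 was 1.53 ± 0.151 in GR-cKO and 1.79 ± 0.228 in control hearts (exact permutation p = 0.2).

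Kcnj3 and Kcnj5 encode the 2 subunits of the channel that acetylcholine opens through the vagus nerve, a current of atrial and nodal cells. Kcnj3 was at 22.4, 31.5 and 29.05 CPM in GR-cKO replicates 1, 2 and 3, against 26.8, 37.7 and 34.1 CPM in control replicates 1, 2 and 3. Kcnj5 was at 50.8, 53.5 and 69.1 CPM in GR-cKO and 53.3, 54.1 and 50.6 CPM in control hearts. Both overlapped between the groups, with log2 fold changes of -0.25 (95% interval -0.59 to 0.098) for Kcnj3 and 0.13 (95% interval -0.14 to 0.41) for Kcnj5. Their log2 ratio was -1.06 ± 0.261 in GR-cKO and -0.69 ± 0.259 in control hearts (exact permutation p = 0.2). Myl7, an atrial myosin light chain, was at 576, 1233 and 799.8 CPM in GR-cKO replicates 1, 2 and 3, against 760.1, 1377 and 866 CPM in control replicates 1, 2 and 3. Kcnj3 was lowest in GR-cKO replicate 1 and highest in control replicate 2, and 4 of the 9 atrial markers, Myl7 among them, shared both of these extremes. The 9 atrial markers summed to 3264 to 4740 CPM in GR-cKO and 3531 to 5345 CPM in control hearts, with 0 of 9 past an unadjusted p of 0.05, none was at 0, and their part in the levels of Kcnj3 was not tested.

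Channels that ATP closes join pore subunits with sulfonylurea receptors, and their 4 genes on the list sit as neighbouring pairs in the genome. Kcnj11, the pore of the channel in heart muscle cells, lies 3758 bases from Abcc8 on chromosome 7, and Kcnj8, the pore of the channel in vascular mural cells, lies 16247 bases from Abcc9 on chromosome 6. Abcc9 was at 174, 184 and 229.8 CPM in GR-cKO replicates 1, 2 and 3, against 211, 198 and 212 CPM in control replicates 1, 2 and 3. Kcnj11 was at 74.7, 86.5 and 103 CPM in GR-cKO and 93.7, 99.7 and 93.1 CPM in control hearts. For both genes GR-cKO replicates 1 and 2 lay below and GR-cKO replicate 3 above all control hearts. The log2 fold changes were -0.077 (95% interval -0.33 to 0.18) for Abcc9 and -0.12 (95% interval -0.38 to 0.14) for Kcnj11.

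Kcnj8 was at 30.2, 25.7 and 47.3 CPM in GR-cKO replicates 1, 2 and 3, against 34.9, 39.2 and 34.2 CPM in control replicates 1, 2 and 3, and again GR-cKO replicate 3 stood above and the other GR-cKO hearts below all controls. Without GR-cKO replicate 3 the log2 fold change of Kcnj8 was -0.37 (unadjusted p = 0.0213, adjusted p = 0.953) and that of Kcnj11 -0.24 (unadjusted p = 0.0383, adjusted p = 0.953), against -0.072 and -0.12 with all hearts. Rgs5, a mural cell marker, was at 479, 479 and 640.1 CPM in GR-cKO and 574, 493 and 527 CPM in control hearts, and like Kcnj8 it was highest in GR-cKO replicate 3, as were 2 of the 11 mural markers in all. The 11 mural markers summed to 1911 to 2044 CPM in GR-cKO and 1598 to 1833 CPM in control hearts. At an unadjusted p under 0.05, 1 was higher, Acta2, and 0 lower, and none was at 0. Acta2 made up a large part of these sums, at 1090 to 1125 CPM in GR-cKO and 720 to 926 CPM in control hearts. The median log2 fold change of the 11 was -0.028, and their part in the level of Kcnj8 was not tested. Abcc8, the sulfonylurea receptor best known from pancreatic beta cells, was at 37.5, 37.0 and 28.7 CPM in GR-cKO replicates 1, 2 and 3, against 31.5, 34.3 and 37.6 CPM in control replicates 1, 2 and 3. The means were 34.4 ± 4.91 CPM in GR-cKO and 34.5 ± 3.02 CPM in control hearts (SD, n = 3 each), the smallest fold change on the list. The log2 ratio of Abcc9 to Abcc8 was 2.51 ± 0.425 in GR-cKO and 2.59 ± 0.136 in control hearts (exact permutation p = 0.8), and that of Kcnj8 to Kcnj11 was -1.39 ± 0.323 in GR-cKO and -1.40 ± 0.0517 in control hearts (exact permutation p = 1).

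**Figure D4:**
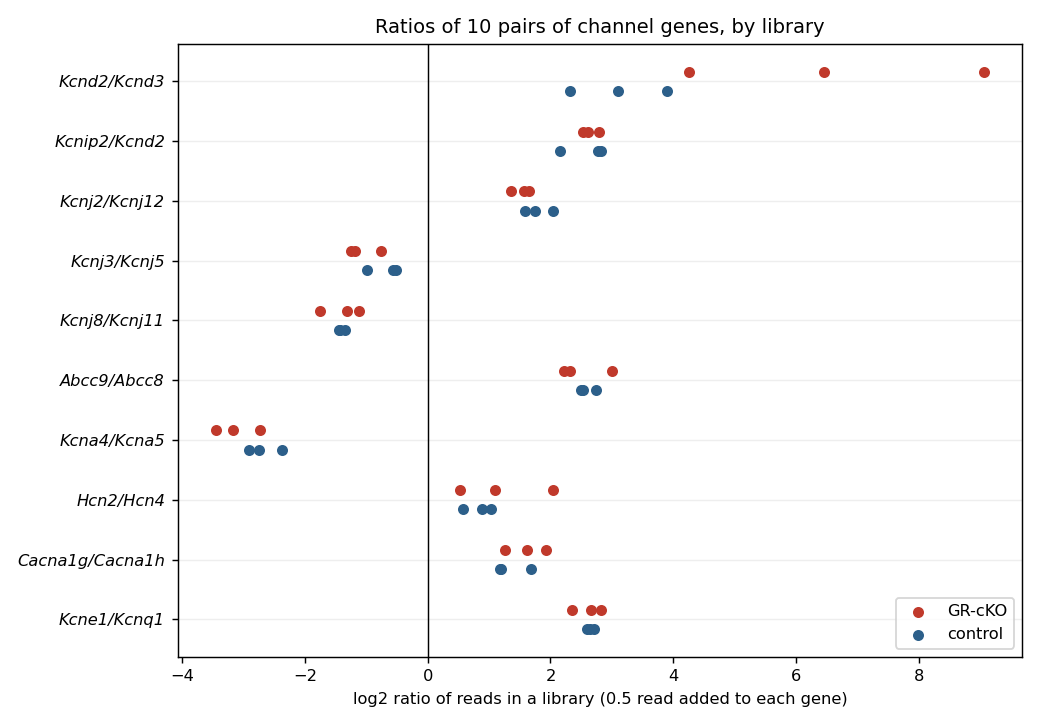
Log2 ratio of reads of 10 pairs of channel genes in each library, with 0.5 read added to each gene; GR-cKO libraries are drawn above control libraries. Only for Kcnd2 over Kcnd3 do the 3 GR-cKO points (4.26 to 9.06) and the 3 control points (2.32 to 3.89) separate.

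The pacemaker channels were among the less abundant genes. Hcn4, the main pacemaker channel of the sinoatrial node and of the embryonic heart, was at 5.03, 8.06 and 5.06 CPM in GR-cKO replicates 1, 2 and 3, against 8.04, 8.79 and 7.03 CPM in control replicates 1, 2 and 3. GR-cKO replicates 1 and 3 lay below all controls and GR-cKO replicate 2 within their range (log2 fold change -0.39, 95% interval -0.94 to 0.15, unadjusted p = 0.149). Without GR-cKO replicate 2 the fold change was -0.66 (unadjusted p = 0.03, adjusted p = 0.867). Hcn2, the pacemaker channel that ventricular muscle also carries, was at 10.7, 11.6 and 20.9 CPM in GR-cKO and 14.9, 13.0 and 14.4 CPM in control hearts. Its log2 fold change was 0.031 (95% interval -0.45 to 0.51), but it was -0.33 without GR-cKO replicate 3, which was higher than every other heart. The log2 ratio of Hcn2 to Hcn4 was 1.22 ± 0.766 in GR-cKO and 0.83 ± 0.237 in control hearts (exact permutation p = 0.5). Markers of the node and conduction system, 13 in all, summed to 315 to 387 CPM in GR-cKO and 325 to 351 CPM in control hearts, with 0 of 11 tested past an unadjusted p of 0.05. The largest parts of these sums were Id2, Irx3 and Smoc2, with means of 88.5, 83.0 and 71.9 CPM in GR-cKO and 86.3, 77.5 and 76.3 CPM in control hearts. Tbx3 was at 14.1 to 20.2 CPM in GR-cKO and 13.0 to 19.6 CPM in control hearts, and Tbx18 at 14.8 to 21.5 and 12.4 to 17.8 CPM. Shox2 was at 1.68 to 4.24 CPM in GR-cKO and 0.629 to 4.57 CPM in control hearts. Isl1 was at 0 to 0.0943 CPM in GR-cKO and 0 to 0.315 CPM in control hearts, and Gjd3 was at 0 in every library.

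Among the calcium channel subunits, Cacna1g was the only channel gene whose GR-cKO hearts all lay above the controls. It encodes a T-type channel that opens at low voltage, contributes to pacemaking and is carried by the fetal ventricle, and its gene spans 94408391 to 94474198 of chromosome 11 (GRCm38), minus strand. It was at 35.2, 35.1 and 46.1 CPM in GR-cKO replicates 1, 2 and 3, against 30.7, 29.4 and 33.04 CPM in control replicates 1, 2 and 3. The edgeR estimate on the log2 scale was 0.32 (SE 0.14, 95% interval 0.018 to 0.62, unadjusted p = 0.0388, adjusted p = 0.998). Without GR-cKO replicate 3 it was 0.18, with an unadjusted p of 0.218 in the edgeR fit. That p was also above 0.05 without control replicate 1 (0.0845), without control replicate 2 (0.101), by library totals (0.0671) and by spike-in scaling (0.126). Cacna1h, the other T-type channel, was at 14.7, 9.20 and 15.0 CPM in GR-cKO replicates 1, 2 and 3, against 13.5, 9.14 and 14.6 CPM in control replicates 1, 2 and 3, and the groups covered nearly the same range. The 3′ end of Cacna1h overlaps exons of Tpsg1 on the other strand, which was at 0 CPM in every library. The log2 ratio of Cacna1g to Cacna1h was 1.61 ± 0.335 in GR-cKO and 1.35 ± 0.290 in control hearts (exact permutation p = 0.3).

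Cacna1d, the pore of an L-type channel of node and atrium, was at 11.5 ± 1.06 CPM in GR-cKO and 13.2 ± 1.57 CPM in control hearts (SD, n = 3 each). Its 3′ end overlaps exons of Chdh on the other strand, which was at 0.335 CPM or less in every library. Cacna2d1, which carries L-type channels to the membrane, was at 111, 83.2 and 109 CPM in GR-cKO replicates 1, 2 and 3, against 96.4, 79.9 and 106 CPM in control replicates 1, 2 and 3. Cacnb2, the main beta subunit of the cardiac L-type channel, was at 74.4, 74.5 and 77.02 CPM in GR-cKO and 74.8, 62.1 and 70.6 CPM in control hearts. Both were lowest in control replicate 2, and their groups overlapped, with log2 fold changes of 0.10 (95% interval -0.18 to 0.39) and 0.12 (95% interval -0.12 to 0.36).

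Sodium channel members were the least abundant group. Scn7a encodes a sodium channel relative that is not opened by voltage in the usual way and is known in the mouse brain as a sensor of extracellular sodium. Its gene spans 66673425 to 66784914 of chromosome 2 (GRCm38), minus strand. It had 146, 143 and 130 reads in GR-cKO replicates 1, 2 and 3, against 218, 209 and 235 reads in control replicates 1, 2 and 3. Its level was 7.30 ± 0.752 CPM in GR-cKO and 10.9 ± 1.40 CPM in control hearts (SD, n = 3 each), and the groups did not overlap. In the edgeR fit Scn7a had a log2 fold change of -0.57 (SE 0.22, 95% interval -1.04 to -0.11, unadjusted p = 0.0178, adjusted p = 0.998). The unadjusted p was 0.0774 with spike-in scaling, 0.085 without control replicate 3 and 0.0507 without GR-cKO replicate 2, while the fold change stayed between -0.66 and -0.47 with each heart left out.

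Scn7a is also transcribed in fibroblasts and glia. The 10 fibroblast markers summed to 4536 to 4821 CPM in GR-cKO and 4787 to 5794 CPM in control hearts, with 1 lower, Col3a1, and 0 higher at an unadjusted p under 0.05, and none at 0. The 13 nerve and Schwann cell markers summed to 52.4 to 60.4 CPM in GR-cKO and 48.1 to 57.7 CPM in control hearts, with 0 of 10 tested past that p, and Th was at 0 in all but 1 library. Their part in the level of Scn7a was not tested. Scn3b and Scn4b encode beta subunits of voltage-gated sodium channels. Scn3b had 26, 21 and 35 reads in GR-cKO replicates 1, 2 and 3, against 23, 11 and 20 reads in control replicates 1, 2 and 3, and its 95% interval of -0.49 to 1.92 on the log2 scale left both directions possible. Scn4b had 3, 0 and 2 reads in GR-cKO and 12, 4 and 0 reads in control hearts and was not tested; a library with 0 reads allows a level of up to 0.141 CPM in GR-cKO replicate 2 and 0.157 CPM in control replicate 3.

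Both Trpm channels had fold changes near 0. Trpm7, a channel joined to a kinase that lets magnesium into cells, was at 52.1, 57.6 and 54.5 CPM in GR-cKO replicates 1, 2 and 3, against 58.7, 58.0 and 58.9 CPM in control replicates 1, 2 and 3. The 3 control hearts lay close together and just above the GR-cKO hearts (log2 fold change -0.097, 95% interval -0.34 to 0.15). This separation rests on the TMM scaling: as a plain share of tested-gene reads, GR-cKO replicate 2 lay above the 3 control hearts. Trpm4, a calcium-activated channel for sodium and potassium, was at 18.2 ± 2.83 CPM in GR-cKO and 18.5 ± 1.38 CPM in control hearts (SD, n = 3 each).

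Across the list, 1 GR-cKO heart set many of the extremes. GR-cKO replicate 3 had the highest level of the 6 libraries for 13 of the 29 tested genes and the lowest for 6, while GR-cKO replicate 1 was highest for 1 and lowest for 9. The genes it led included Hcn2, Kcnj8, Kcnq1, Kcnh2, Kcnj5 and Cacna1g, and those in which it was lowest included Kcnk3, Abcc8, Kcnj2 and Kcne4. The scaling factor of this library (TMM) was 0.904, against 1.01 to 1.06 in the other 5. The part of this scaling in the extremes was not tested, and without this library the sign of the log2 fold change reversed for 9 of the 29 genes. Extremes and reversals were not counted over all tested genes, so they are not given as a trait of the channel genes. Over all genes this library also stood apart, with a chi-square of 35.6 to 56.0 times its degrees of freedom against each other library. Without it 0 channel genes were higher and 4 lower at an unadjusted p under 0.05 (Kcnd3, Scn7a, Kcnj8 and Kcnj11), where 383 and 407 of 15385 tested genes were, and none of them passed after adjustment by edgeR.

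**Figure D5:**
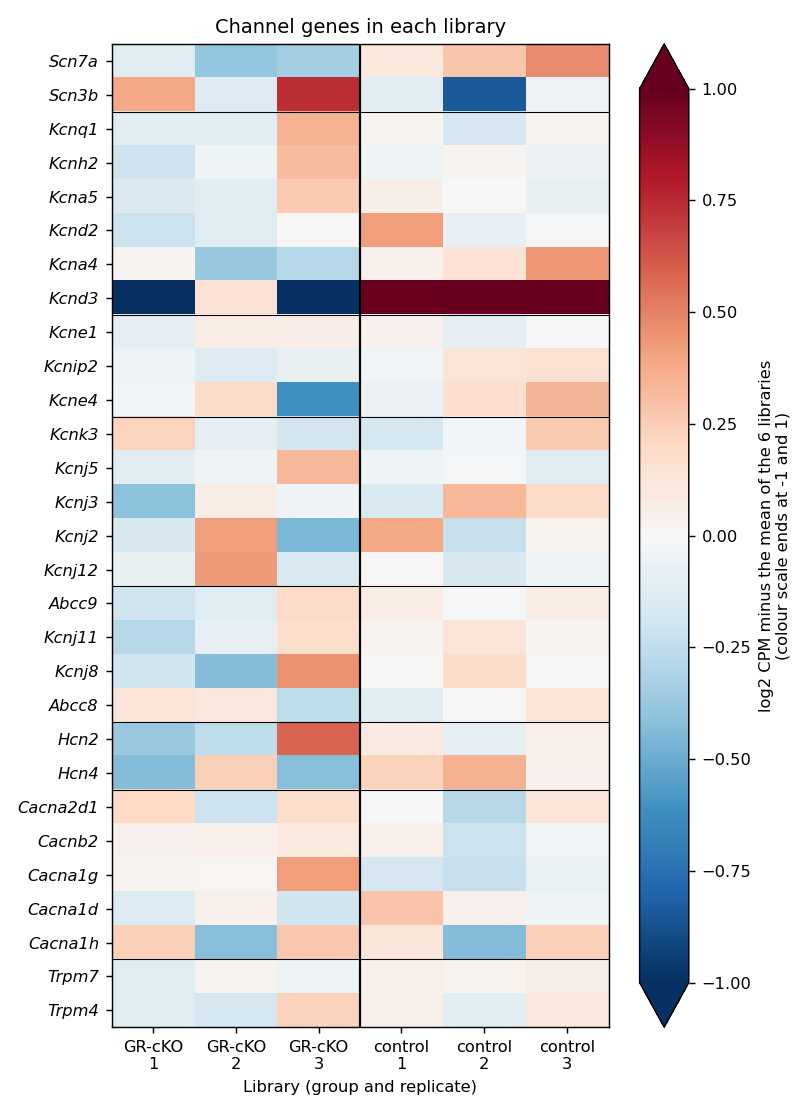
Log2 CPM of each tested channel gene in each library, as the difference from its 6-library mean, with GR-cKO libraries left of control libraries and genes grouped by role; the colour scale ends at -1 and 1. Kcnd3 shows the widest contrast, and GR-cKO replicate 3 is highest for 13 of the 29 genes, a count not made over all tested genes.

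Other genes of cardiac excitability were tested in the same fit, from lists chosen with earlier results of these data known, so their shares are a description only. A list of 71 further channel subunits had 51 tested members, of which 2 were higher and 2 lower at an unadjusted p under 0.05, 7.84% against 4.2% of all tested genes, and 0 passed over all genes. The 3 of smallest p were Ano1, Kcnj15 and Cacng6. Ano1, a calcium-activated chloride channel, was at 9.33 ± 1.90 CPM in GR-cKO and 14.1 ± 1.06 CPM in control hearts. Kcnj15, an inward rectifier, was at 5.17 ± 0.967 CPM in GR-cKO and 7.92 ± 2.26 CPM in control hearts. Cacng6, a calcium channel gamma subunit, was at 20.9 ± 4.73 CPM in GR-cKO and 15.7 ± 2.14 CPM in control hearts (SD, n = 3 each). Of 28 channel partners and trafficking genes, 25 were tested, with 2 higher and 2 lower at that p, 16% against 4.2% of all tested genes, and 0 passing over all genes. Among these, Rangrf, a protein that aids sodium channel trafficking, was at 1.62 ± 0.525 CPM in GR-cKO and 3.69 ± 1.11 CPM in control hearts. Kcnab2, a beta subunit of Kcna pores, was at 2.17 ± 0.506 CPM in GR-cKO and 0.746 ± 0.192 CPM in control hearts. Cav3, the caveolin of muscle, was at 256 ± 43.3 CPM in GR-cKO and 208 ± 4.68 CPM in control hearts (SD, n = 3 each), and these were the 3 of smallest p. The median log2 fold changes were 0.0033 for the further channels and 0.040 for the partners, against 0.0057 for all tested genes.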

How the data were processed

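RNA of homogenised P7 hearts came from a column kit (NucleoSpin RNA II), and 100 ng went into each QuantSeq FWD library, per the labels' protocols. The deposited files hold counts, whole reads per Ensembl gene, 1 library per file, with no normalization by the authors. The submitters' processing notes name DESeq2 1.18.1, featureCounts 1.6.2, STAR 2.5.4a, MultiQC 1.5, FastQC 0.11.7, cutadapt 1.16 and bcl2fastq, and the build GRCm38. With the annotation release and strand setting not given in the sources used here, genes that overlap another gene on the opposite strand have uncertain counts.

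GENCODE M21 gave gene symbols and positions and matched 52403 of 52550 mouse rows. The 99 spike-in rows, 1.63 to 2.01% of reads, were left out. In R 4.3.3 with edgeR 4.0.16, genes were filtered with filterByExpr by group and scaled by TMM, and genotype was tested with the quasi-likelihood F test, with Benjamini-Hochberg adjustment over the 14860 tested genes. CPM were computed over the reads of tested genes, with TMM-scaled library sizes. Fold changes are GR-cKO over control. Ratios within a library used exact 2-sided permutation tests. DESeq2 1.42.0, limma 3.58.1, other scalings, filters, a replicate block and each library left out were alternatives. The labels name no molecular identifiers, so limits from counts cover counting error only.

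The members and lists were chosen with earlier results of these data known. Named were all members, with values per library for the 10 of highest control mean, those with an unadjusted p under 0.05 or among the 6 smallest and genes of described ratios, and 3 genes of smallest p from each further list. Replicates are biological per the labels.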

Additional observations from a re-analysis of the deposited data

How the results depend on the processing

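No channel gene passed in any fit, where the smallest adjusted p of the list was 0.141. The fits differed more in genes off the list: by library totals 0 genes were higher and 2 lower, without a filter 4 higher and 6 lower, by DESeq2 1 higher and 3 lower, and with each library left out 0 higher and 1 to 2 lower, against 0 and 1 in the fit reported. The split of all genes at an unadjusted p under 0.05 was 308 higher and 316 lower, but 170 and 361 by library totals and 134 and 87 with spike-in scaling. Channel genes at that p numbered 3, but 1 with spike-in scaling, and 2 to 4 with each library left out. The further channels and partners numbered 8, but 4 with spike-in scaling, and 4 to 7 with each library left out. Over all genes, the fits with a library left out had 219 to 400 higher and 218 to 462 lower at that p, of 15286 to 15415 tested. The median log2 fold change of the channel genes ran from -0.0996 to -0.00843 with each library left out.

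The sign turned for 13 of the 29 channel genes in some fit, and such turns were not counted over all tested genes. By setting, the log2 fold change of Kcna5 was -0.0292 by library totals, that of Hcn2 was -0.0292 by library totals, -0.0407 by limma voom and -0.0286 with the replicate block, and that of Abcc8 was 0.00013 with DESeq2 size factors, 0.00020 by DESeq2 and 0.0539 with spike-in scaling. With each library left out it ran from -0.39 to 0.0739 for Kcnj2, -0.33 to 0.21 for Hcn2, -0.12 to 0.25 for Cacna1h, -0.12 to 0.0922 for Kcna5, -0.17 to 0.0892 for Kcnk3, -0.0645 to 0.11 for Abcc8, -0.17 to 0.0443 for Trpm4, -0.37 to 0.098 for Kcnj8, -0.21 to 0.00373 for Abcc9, -0.059 to 0.26 for Kcnj12, -0.0996 to 0.17 for Kcnh2, -0.0818 to 0.17 for Kcnq1 and -0.014 to 0.22 for Kcnj5. Differences in log2 ratio ran from -0.16 to 0.17 for Kcnip2 over Kcnd2, -0.13 to 0.19 for Kcnj8 over Kcnj11, -0.32 to 0.0694 for Abcc9 over Abcc8, -0.0203 to 0.74 for Hcn2 over Hcn4 and -0.14 to 0.0934 for Kcne1 over Kcnq1. The causes were not tested.

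Deviations of same-numbered libraries from their group means had correlations of 0.062, 0.056 and 0.014 across genes, and control replicate 3 correlated better with GR-cKO replicate 1 than with its own number, so the numbers were not taken as pairs. With the replicate block in edgeR 0 genes were higher and 1 lower after adjustment. At an unadjusted p under 0.05 there were 3 channel genes, where 303 of all 14860 tested genes were higher and 341 lower. Depth limits Kcnd3, Scn3b and Scn4b, with 128, 136 and 21 reads over all 6 libraries.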
